A study of Homo sapiens with 6 samples.

Results

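The neurexins, neuroligins and LRRTMs (leucine rich repeat transmembrane neuronal proteins) are adhesion proteins that join the pre- and postsynaptic membranes. Their transcripts were followed in RBM12-depleted iNeurons, glutamatergic neurons derived from WTc11, a line of human induced pluripotent stem cells. The genes were taken by symbol, and the 9 listed (NRXN2, NRXN3, NLGN1, NLGN2, NLGN3, LRRTM1, LRRTM2, LRRTM3 and LRRTM4) were all present among the 19823 genes of the deposited table. Poly(A) RNA-seq was available for 6 samples, 3 untreated and 3 treated with isoproterenol, an agonist of the beta-adrenergic receptors that raises cAMP. Both groups carried the same knockdown of RBM12, an RNA-binding protein, made by CRISPR interference (a guide RNA and a catalytically dead Cas9 fused to a repressor), and both had only the beta-2-adrenergic receptors native to the parental line, which the study describes as few. In the study's methods, neurons were induced by doxycycline-driven NGN2 in 1 clonal line, and cells carrying the guide were sorted as stem cells. The dose and time of isoproterenol for these samples are not given in the labels. Nothing in the labels says that replicates came from separate cultures, so p-values measure the spread between these samples, which may be technical.

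Neurexins sit mostly in the presynaptic membrane, where they organize the release machinery through scaffolds such as CASK. Neuroligins and LRRTMs sit in the postsynaptic membrane, bind neurexins across the cleft, and recruit scaffolds and neurotransmitter receptors. NLGN1 is known from excitatory synapses, NLGN2 from inhibitory synapses and NLGN3 from both, while LRRTMs act at excitatory synapses. The comparison asks which of these transcripts differ between isoproterenol and untreated neurons when RBM12 is depleted.

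Values are normalized counts, that is reads per gene divided by a size factor per sample. The samples held 18116816 to 21488793 reads. RBM12 itself stood at 244, 279 and 267 normalized counts in untreated samples 1, 2 and 3, and at 195, 238 and 233 with isoproterenol. It was thus lower in each pair and the groups did not overlap (log2 fold change -0.25, limma adjusted p 0.607, or 0.131 in the blocked fit). The part of this difference in the results was not tested, and without a sample carrying a control guide the depletion could not be measured. The labelled cell type was checked on markers. SLC17A6, a vesicular glutamate transporter, was at 12393 to 14710 normalized counts and SLC17A7 at 2968 to 3318, whereas the cortical factor TBR1 stayed at 3.99 to 8.28. The GABAergic marker SLC32A1 was at 11.0 to 24.2, and the pluripotency factor SOX2 at 0 to 1.03. Of 6 astrocyte markers, the 2 tested (AQP4, S100B) summed to 160 to 175 normalized counts in untreated and 134 to 157 in isoproterenol samples. Of 5 oligodendrocyte markers, the 3 tested, of which MBP gave nearly all reads, summed to 949 to 984 in untreated and 1015 to 1102 in isoproterenol samples. The part of these shifts in the results was not tested. Of the pan-neuronal markers MAP2 was at 32515 to 34627 normalized counts, but TUBB3 at only 69.2 to 94.4. The 7 glutamatergic and the 6 pan-neuronal markers overlapped between the groups in their sums, but some single markers did not. Of all tested genes 12.9% were separate in either direction. Of the glutamatergic list 2 were separate and higher, SLC17A7 and the NMDA receptor subunit GRIN1. SLC17A7 did not pass with the block (limma adjusted p 0.372). GRIN1 was at 547 to 672 normalized counts untreated and 723 to 846 with isoproterenol, and passed with the block (limma adjusted p 2.67e-04). Of the pan-neuronal list 1 was separate and lower, the synaptic vesicle protein SYP, at 19933 to 20705 against 18080 to 19549 (limma adjusted p 4.31e-06 with the block).

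Levels of different genes can be compared only per length, here normalized counts per kilobase of merged exon (GENCODE release 44). On this scale the mean level over the 6 samples was 1309 for NRXN2, 1130 for NLGN2, 196 for LRRTM4, 149 for NLGN3, 59.4 for NLGN1, 48.1 for LRRTM3, 42.8 for NRXN3, 32.3 for LRRTM1 and 6.17 for LRRTM2. The presynaptic NRXN2 and the inhibitory-synapse neuroligin NLGN2 thus stood at the top, above 97.5% and 96.8% of the tested genes. LRRTM2 stood at the bottom, above 12.6%. The ranges of NLGN1, LRRTM3, NRXN3 and LRRTM1 overlapped between neighbours in this order. Such ranges leave out that the genes share samples, so overlap does not show equal levels. NLGN1 lay above LRRTM3 in each sample, while LRRTM3 with NRXN3, and NRXN3 with LRRTM1, changed order between samples. All other neighbours in the order had separate ranges, the closest being NRXN2 and NLGN2 at a ratio of 1.16. Merged exons include every annotated transcript, so a gene expressed from short transcripts has its level per length understated.

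**Figure D1:**
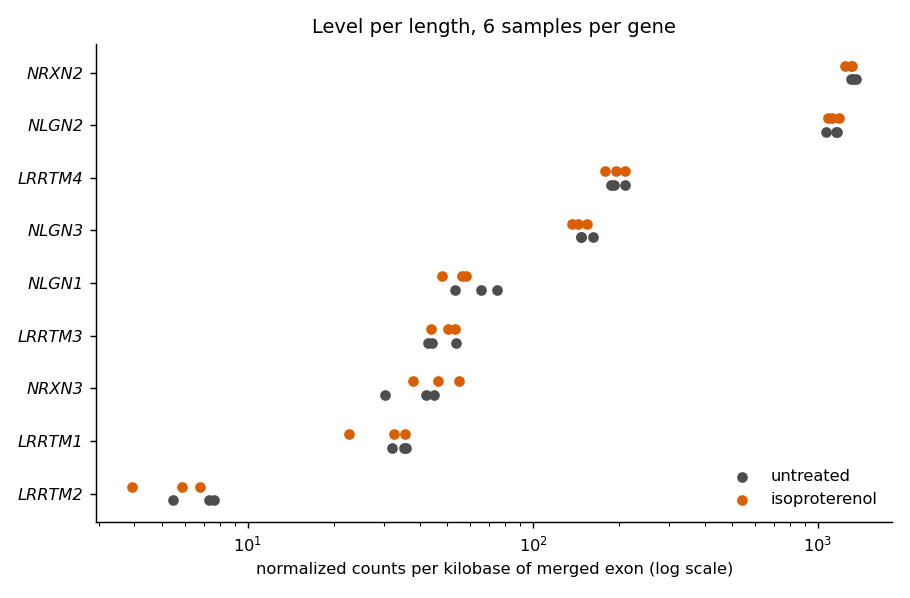
Normalized counts per kilobase of merged exon (log scale) for the 9 genes, 1 point per sample, untreated in grey and isoproterenol in orange. NRXN2 and NLGN2 lie at 1070 or more in every sample, NLGN1, LRRTM3, NRXN3 and LRRTM1 form a band between 22.6 and 74.9, and LRRTM2 lies below 7.64.

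With the samples taken as unpaired, 0 of the 9 genes passed an adjusted p of 0.05 over the 18130 genes tested (limma, two-sided, Benjamini-Hochberg). By that rule 0.0165% of all tested genes passed. Without the pairs, edgeR and DESeq2 on the recovered reads also called 0 members. There edgeR called 0.0165% of all genes and DESeq2 0.15% of the genes given an adjusted p. In limma without the pairs 0 of the 9 had an unadjusted p under 0.05, against 7.68% of all genes. In none (0) of the 9 genes were the groups separate, against 12.9% of all genes. With the replicate number as a block, 2 of the 9 passed, NRXN3 higher and NLGN1 lower with isoproterenol, where 4.88% of all genes passed (2.82% higher, 2.06% lower). At an unadjusted p under 0.05 in that fit the count was 4 of 9, against 16.2% of all genes. The same 2 genes passed in edgeR with the block (5.39% of all genes), and 0 passed in DESeq2 with the block (0.999% of the genes given an adjusted p), where 2 had an unadjusted p under 0.05 (4.92% of all genes). Same-numbered samples deviated together across genes, which is why the blocked values are given beside the others. In bulk RNA, fewer cells of a type and less RNA per cell cannot be told apart.

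**Figure D2:**
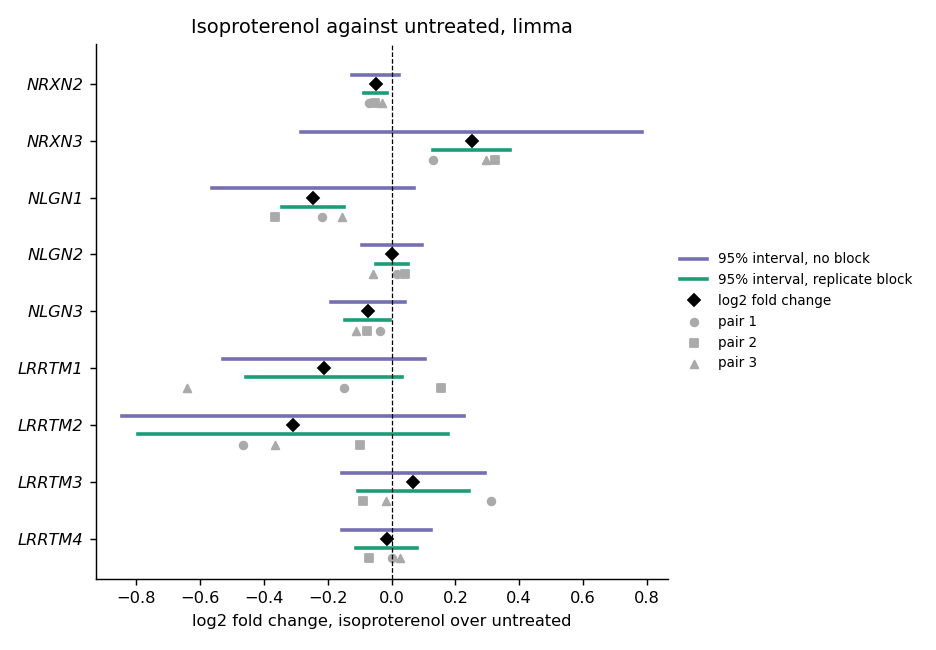
Log2 fold change of isoproterenol over untreated samples for the 9 genes (diamonds), with the 95% interval from limma without the block (purple) and with the replicate block (green), and the change within each pair (grey symbols). Without the block all 9 intervals include 0, and with it those of NRXN2, NRXN3, NLGN1 and NLGN3 do not.

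NRXN3 (ENSG00000021645) encodes a neurexin and lies on chromosome 14 (78170373 to 79868291, plus strand, GRCh38), where it spans 1698 kb. Untreated samples 1, 2 and 3 held 656, 470 and 698 normalized counts of NRXN3, and isoproterenol samples 1, 2 and 3 held 718, 589 and 858. Sample 2 was the lowest of both groups and the groups overlapped, yet in each same-numbered pair the isoproterenol sample was the higher one. Within pairs 1, 2 and 3 the log2 change was 0.13, 0.32 and 0.30, which is 9.56%, 25.3% and 22.8% more normalized counts. The log2 fold change was 0.25 (SE 0.21, 95% interval -0.28 to 0.78), at a limma adjusted p of 0.836. With the replicate block the SE was 0.061 and the interval 0.13 to 0.37, and NRXN3 passed (limma adjusted p 0.00369, edgeR 0.00300), but not in DESeq2 with the block (adjusted p 0.387).

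The NRXN3 call depended on the pairs present. With pair 2 left out of the blocked fit its limma adjusted p was 0.0515 (3.67% of all genes then passed), with pair 3 left out 0.0861 (2.52%), and with pair 1 left out 0.00198 (2.93%). Without the block, its log2 fold change ran from 0.08, with untreated sample 2 left out, to 0.39, with isoproterenol sample 2 left out. Its adjusted p ran from 0.00198 to 0.9995 over 21 alternatives. Its variation within a group was 19.9% in untreated and 18.6% in isoproterenol samples, against 3.94% from counting alone. NRXN3 is on the list of knockdown-selective targets that the study chose on libraries from other neurons.

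**Figure D3:**
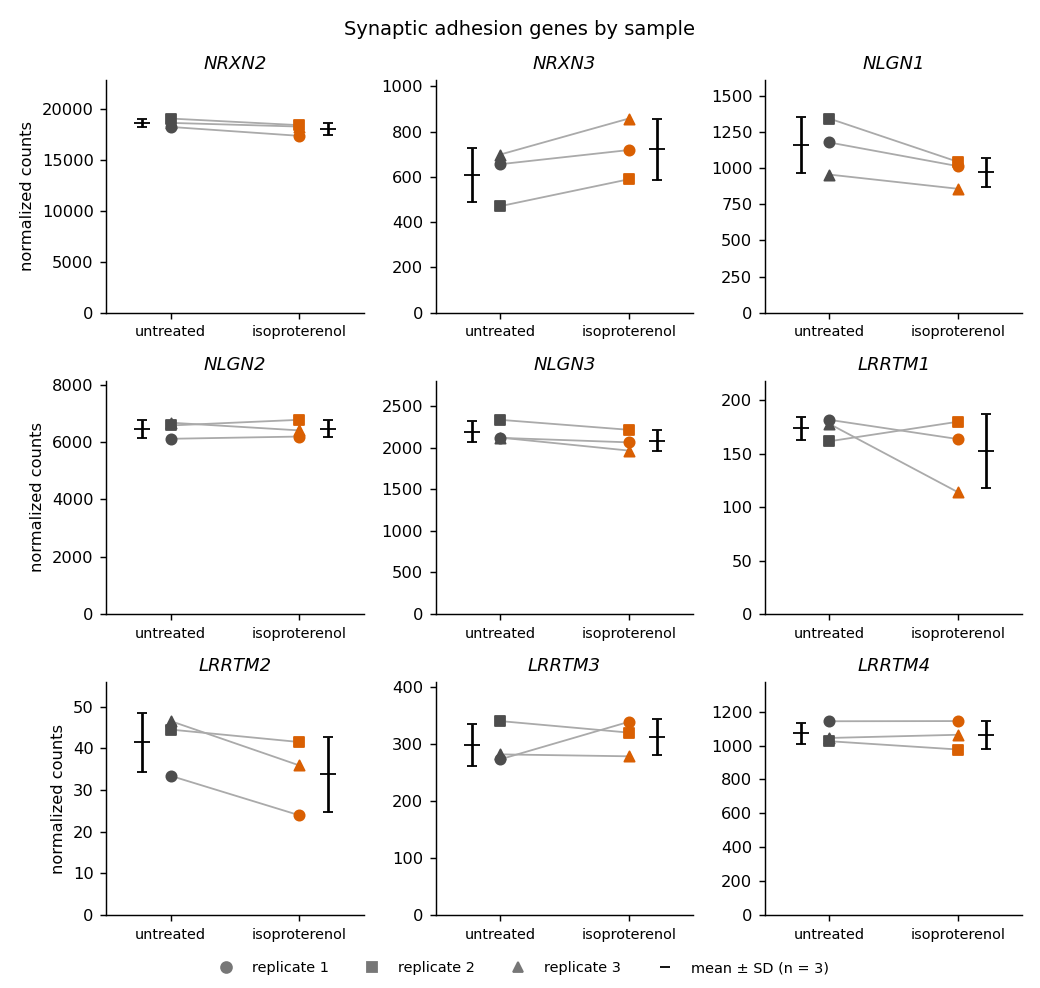
Normalized counts of the 9 genes in untreated (grey) and isoproterenol (orange) samples, on axes that start at 0. Lines join samples with the same replicate number, and black bars give mean ± SD (n = 3). All 3 lines slope up for NRXN3 and down for NRXN2, NLGN1, NLGN3 and LRRTM2, while the 2 groups overlap in every panel.

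The genes whose levels followed NRXN3 most closely over the 6 samples, among the 11586 genes averaging 100 normalized counts or more, were SYTL5 (Pearson r 0.999), RBM14 (0.993) and CRTAC1 (0.993). SYTL5, a synaptotagmin-like protein, stood at 807, 593 and 870 normalized counts in untreated samples 1, 2 and 3. In isoproterenol samples 1, 2 and 3 it stood at 902, 729 and 1058. Sample 2 was lowest in both groups, as in NRXN3. These correlations rest on 6 points that share libraries and depth, and are the highest of many, so they are a description only.

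NRXN2 (ENSG00000110076), the other neurexin analysed here, lies on chromosome 11 (64606174 to 64723197, minus strand) and was the most abundant member per length. Untreated samples 1, 2 and 3 held 18237, 19060 and 18635 normalized counts, and isoproterenol samples 17361, 18408 and 18273. The isoproterenol sample was lower in all 3 pairs, with changes of -4.80%, -3.42% and -1.94% in pairs 1, 2 and 3, and the groups overlapped. Its log2 fold change was -0.05 (SE 0.035, 95% interval -0.12 to 0.02), at a limma adjusted p of 0.776, and 0.104 with the replicate block. It was -0.02 with isoproterenol sample 1 left out. At 15962 to 19698 reads per sample, this interval is the narrowest among the 9 genes. Its exons share 289 bases with the antisense gene NRXN2-AS1 (2.06% of the exon bases), and whether counting used the strand is not known.

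As a share of the per-length level of both neurexins analysed, NRXN3 held 3.14%, 2.18% and 3.27% in untreated samples 1, 2 and 3. The isoproterenol samples held 3.60%, 2.80% and 4.06%. The share was larger with isoproterenol in every pair, by 0.457, 0.629 and 0.791 percentage points. The means were 2.86% ± 0.597 and 3.49% ± 0.634 (SD, n = 3 per group), with a two-sided exact permutation p of 0.4 (smallest possible 0.1; 0.667 adjusted over the 8 shares tested). Flipping the signs of the 3 pairs gave an exact p of 0.25, the smallest that 3 pairs allow. NRXN2 thus made up over 95.9% of the neurexin level in each sample. Counts per gene do not separate the long and short neurexin forms made from alternative promoters, nor alternative splice inserts.

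Among the neuroligins, NLGN1 (ENSG00000169760), known from excitatory synapses, lies on chromosome 3 (173396284 to 174294372, plus strand). Its normalized counts were 1177, 1342 and 955 in untreated samples 1, 2 and 3. In isoproterenol samples 1, 2 and 3 they were 1013, 1043 and 857. It was lower with isoproterenol in each pair, with changes of -13.9%, -22.3% and -10.3%, and untreated sample 3 lay below 2 of the isoproterenol samples, so the groups overlapped. Means were 1158 ± 194 and 971 ± 99.9 (SD, n = 3 per group), a log2 fold change of -0.25 (SE 0.13, 95% interval -0.56 to 0.07) at a limma adjusted p of 0.723.

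With the replicate block NLGN1 passed (interval -0.34 to -0.15, limma adjusted p 1.97e-04, edgeR 4.19e-05), and it did not pass in DESeq2 with the block (adjusted p 0.113). The limma adjusted p was 0.0525 without pair 2, 0.00101 without pair 1 and 1.36e-04 without pair 3. In the fit without the block the log2 fold change was -0.13 without untreated sample 2 and -0.38 without untreated sample 3. NRXN3 and NLGN1 thus had changes of like size and opposite sign, 0.25 and -0.25 on the log2 scale.

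NLGN3 (ENSG00000196338), on chromosome X (71144821 to 71175255, plus strand), had 2120, 2337 and 2123 normalized counts in untreated samples 1, 2 and 3. The isoproterenol samples held 2065, 2217 and 1966. Every pair was lower with isoproterenol, with changes of -2.56%, -5.15% and -7.36% in pairs 1, 2 and 3. The log2 fold change was -0.07 (SE 0.056, 95% interval -0.19 to 0.04), and NLGN3 did not pass without the block (limma adjusted p 0.788) or with it (0.278). The fold change was -0.03 without untreated sample 2 and -0.12 without isoproterenol sample 2.

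NLGN2 (ENSG00000169992), the neuroligin of inhibitory synapses, lies on chromosome 17 (7404874 to 7419860, plus strand) and was the most abundant of the 3 neuroligins analysed here. Its normalized counts were 6116, 6582 and 6678 in untreated samples 1, 2 and 3 and 6194, 6779 and 6409 in their isoproterenol partners. These values interleaved, and the pairs moved both ways. The mean was 6459 ± 301 in untreated and 6461 ± 296 in isoproterenol samples. Its log2 fold change was 0.0005 (SE 0.045), with a 95% interval of -0.09 to 0.09, at a limma adjusted p of 0.998. The sign of this small value flipped with TMM scaling, edgeR and DESeq2.

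Of the per-length level of these 3 neuroligins, other family members not included, NLGN2 held 82.9% to 85.3% in untreated and 84.4% to 85.9% in isoproterenol samples, NLGN3 10.8% to 11.7% and 10.5% to 11.2%, and NLGN1 3.89% to 5.40% and 3.66% to 4.40%. In all 3 pairs the NLGN2 share was larger with isoproterenol, by 1.02, 1.91 and 0.539 points, and those of NLGN1 and NLGN3 smaller. The two-sided exact permutation p was 0.3 for each of the 3 shares (adjusted 0.667). With 3 samples a group this p cannot go below 0.1, and the sign-flip p of the pairs, 0.25, was the smallest that 3 pairs allow, so neither test could pass.

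The LRRTMs are postsynaptic ligands of neurexins, and 3 of their 4 genes lie inside alpha-catenin genes, on the opposite strand. LRRTM1 (ENSG00000162951, chromosome 2, 80288351 to 80304752, minus strand) lies within CTNNA2 and shares 0 exonic bases with it, LRRTM2 (ENSG00000146006, chromosome 5, 138868921 to 138875368, minus strand) within CTNNA1, and LRRTM3 (ENSG00000198739, chromosome 10, 66926036 to 67101551, plus strand) within CTNNA3. LRRTM2 shares 445 exonic bases with CTNNA1 (7.30% of its exon bases) and LRRTM3 shares 177 with CTNNA3 (2.79%), which makes the counts of both uncertain. LRRTM3 also shares 39 exonic bases (0.615%) with the protein-coding gene ENSG00000289325 on the same strand, which counting by strand would not separate. LRRTM4 (ENSG00000176204, chromosome 2, 76747685 to 77593319, minus strand) shares no exonic base with another gene.

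LRRTM4, the most abundant LRRTM, had 1143, 1026 and 1045 normalized counts in untreated samples 1, 2 and 3. In the isoproterenol samples it had 1145, 977 and 1064. In both groups sample 1 was highest and sample 2 lowest, and the changes within pairs were 0.0966%, -4.76% and 1.81%. The log2 fold change was -0.01 (SE 0.067, 95% interval -0.15 to 0.13) at a limma adjusted p of 0.979. LRRTM4 held 67.0% to 71.3% of the per-length LRRTM level in untreated and 65.9% to 73.0% in isoproterenol samples (exact permutation p 0.8, two-sided).

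LRRTM3 had 273, 340 and 281 normalized counts in untreated samples 1, 2 and 3, and 338, 319 and 278 in isoproterenol samples 1, 2 and 3. Pair 1 was higher with isoproterenol, by 24.1%, while pairs 2 and 3 were lower. Its log2 fold change was 0.07 (SE 0.11, 95% interval -0.15 to 0.29), at a limma adjusted p of 0.922, and it was -0.05 in the blocked fit without pair 1. Without the block it was 0.0076 without isoproterenol sample 1 and 0.17 without untreated sample 2.

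LRRTM1 had 182, 162 and 178 normalized counts in untreated samples 1, 2 and 3, and 164, 180 and 114 in isoproterenol samples 1, 2 and 3. Isoproterenol sample 3 stood apart below the other samples, and pair 2 was higher with isoproterenol. The log2 fold change of -0.21 (SE 0.15, 95% interval -0.53 to 0.10, limma adjusted p 0.781) was -0.02 without that sample and -0.34 without isoproterenol sample 2.

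LRRTM2 was close to the limit of depth, at 24 to 46 reads per sample. It had 33.4, 44.5 and 46.6 normalized counts in untreated samples 1, 2 and 3, and 23.9, 41.5 and 35.9 in isoproterenol samples 1, 2 and 3. Each pair was lower with isoproterenol, but counting alone gives a coefficient of variation of 16.6% at this depth. Its log2 fold change of -0.31 (SE 0.26, 95% interval -0.84 to 0.23) had a limma adjusted p of 0.813, and 0.596 with the block. It was -0.09 without isoproterenol sample 1. Without isoproterenol sample 2 it was -0.47.

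Isoproterenol raises cAMP, which activates CREB, a factor that binds the cAMP response element. Promoters of RefSeq genes (GRCh38.p14, 250 bases before to 50 after a start) were therefore searched on both strands for its full letters TGACGTCA and its stem TGACG, which the full element contains. Of the 9 genes 7 matched, with 11 promoters, and NRXN2 and LRRTM4 were not matched. The full element stood in 1 of the 11, that of LRRTM2, against 1.85% of the 35116 promoters, and the stem in 2 of the 11, of LRRTM2 and NLGN1, against 24.6% of all. Shown for these 2 genes are 30 bases around the match, with the matched letters in capitals (CGTCA is the stem on the other strand).
LRRTM2: acgtcatccggTGACGTCAgcctatataca
NLGN1: ctcccgttccccCGTCAgtccccccacccg
The LRRTM2 stretch is chr5:138875368-138875397 on the minus strand, and its element begins 51 bases before the start. A further stem lies 61 bases before the start, in lower case at the left end. The NLGN1 stretch is chr3:173397611-173397640 on the plus strand, 121 bases before the start in 1 of its 2 promoters. A match is a description of letters, not of binding.

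Across the 9 genes, 5 moved in 1 direction in all 3 pairs (1 higher, 4 lower), against 36.1% of all tested genes (18.5% higher, 17.6% lower). The median log2 fold change was -0.05 for the 9 genes and 0.0015 for all genes. By family, 2 of the 3 listed neuroligins had a negative value (3 with TMM scaling, where the sign of NLGN2 flipped). Of the 4 LRRTMs 3 had a negative value, and the neurexins moved in opposite directions. A further neuroligin, NLGN4X, was counted among the neurexin partners. Its log2 fold change was -0.07 (limma adjusted p 0.822, and 0.425 with the block). Log2 fold changes of the 9 genes ran from -0.31 for LRRTM2 to 0.25 for NRXN3. All 9 lie within the central 90% of all tested genes, -0.34 to 0.43.

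Related genes were taken from 4 lists, described by counts. Without the block 0 of their 96 tested members passed (limma), where 11 had an unadjusted p under 0.05 (7.68% of all genes), and edgeR and DESeq2 without the block also gave 0. With the replicate block 11 passed in limma, 12 in edgeR and 3 in DESeq2, and leaving out 1 pair in turn left 7 to 9 in limma. Of 26 tested neurexin ligands, partners and regulators, 2 were higher and 1 lower. Of 31 other trans-synaptic adhesion genes, 2 were higher and 2 lower, of 18 presynaptic scaffold genes 4 were higher and 0 lower, and of 21 postsynaptic scaffold genes 0 passed. The background was 2.82% higher and 2.06% lower. The list medians, in the same order, were 0.0011, -0.02, -0.02 and -0.0017.

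**Figure D4:**
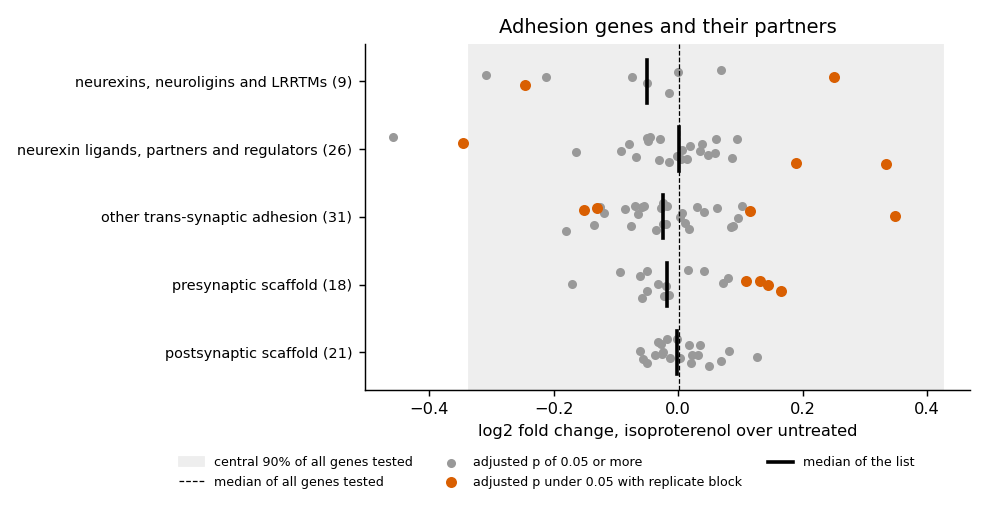
Log2 fold change of isoproterenol over untreated samples for each tested gene of 5 lists (number of genes in parentheses), with the list median as a black bar and the central 90% of all genes as a grey band. Genes past an adjusted p of 0.05 in limma with the replicate block are orange, and the postsynaptic scaffold list has none (0).

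Among adhesion genes outside the 3 families, TENM2, a teneurin that binds latrophilins across the synapse, had 1391, 1003 and 1349 normalized counts in untreated samples 1, 2 and 3. With isoproterenol it had 1694, 1376 and 1670. It was higher in each pair with overlapping groups (log2 fold change 0.35, SE 0.16, limma adjusted p 0.680, and 5.79e-10 with the block), and 0.20 without untreated sample 2. TENM1, another teneurin, had a log2 fold change of 0.12 (limma adjusted p 0.0378 with the block, but 0.431 without pair 1 and 0.208 without pair 2), and its groups did not overlap. CDH2 (N-cadherin) fell in the blocked fit. Its mean was 11942 ± 822 normalized counts without and 10757 ± 686 with isoproterenol (SD over 3 samples), a log2 fold change of -0.15 with a limma adjusted p of 3.43e-08 in that fit. Without untreated sample 2 the value was -0.09. LRRC4C, a postsynaptic ligand of netrin-G1, had a log2 fold change of -0.13 (limma adjusted p 3.32e-04 with the block) and groups that did not overlap. Of the 31 tested genes of this list 5 had separate groups, 2 higher and 3 lower, against 12.9% of all tested genes.

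Of the neurexin partners, CLSTN2, a calsyntenin, had 6899, 6100 and 6717 normalized counts in untreated samples 1, 2 and 3 and 8095, 6858 and 7546 with isoproterenol, higher in each pair (log2 fold change 0.19, limma adjusted p 0.462, and 2.32e-09 with the block). CBLN2, a secreted cerebellin that bridges neurexins to postsynaptic receptors, averaged 301 ± 108 and 374 ± 112 normalized counts (log2 fold change 0.33, limma adjusted p 0.00662 with the block and 0.102 with the block when pair 1 was left out). In the fit without the block, the CBLN2 value was 0.02 without untreated sample 2 and 0.61 without isoproterenol sample 2. C1QL1, a secreted C1q-like protein, averaged 657 ± 108 in untreated and 522 ± 123 with isoproterenol (log2 fold change -0.35, limma adjusted p 5.97e-05 with the block), and its value was -0.22 without isoproterenol sample 1 and -0.53 without isoproterenol sample 2. Only TENM2, CDH2 and CLSTN2 among these related genes also passed in DESeq2 with the block (adjusted p 2.54e-04, 8.26e-04 and 2.25e-04).

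On the presynaptic side, where neurexin tails meet scaffolds, the 4 genes past the threshold with the block were PPFIA4 (liprin-alpha-4, log2 fold change 0.17), BSN (bassoon, 0.15), LIN7A (0.13) and APBA2 (0.11), each with a limma adjusted p of 0.0211 or less. BSN averaged 4462 ± 195 and 4932 ± 58.8 normalized counts, and APBA2 2974 ± 55.1 and 3209 ± 61.2 (SD, n = 3 per group). In BSN and APBA2 every isoproterenol sample lay above every untreated one, and in PPFIA4 pair 1 was lower with isoproterenol. Of the 18 presynaptic scaffold genes 4 had separate groups, 2 higher and 2 lower, against 12.9% of all tested genes. Unblocked, PPFIA4 was at 0.09 without untreated sample 2 and LIN7A at 0.09 without isoproterenol sample 1. With 1 pair left out of the blocked limma fit, BSN passed each time. APBA2 did not pass without pair 1 (adjusted p 0.130) or pair 3 (0.225), nor did LIN7A (0.212 and 0.116), and PPFIA4 did not pass without pair 2 (0.432) or pair 3 (0.136). None (0) of these 4 passed in DESeq2 with the block.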

How the data were processed

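The authors selected poly(A) RNA, made directional libraries, checked reads with FastQC, aligned them to GRCh38 with STAR and counted them with featureCounts. Versions of these tools, the gene annotation used and whether counting used the strand are not given in the sources used here. The deposited values are a signal per gene and sample, the read count divided by 1 DESeq2 size factor per sample. Every value was a whole multiple of the column's step (100% within 0.001), which gave whole reads, 18116816 to 21488793 per sample. Gene identifiers were matched to GENCODE release 44 (99.6%), and promoter sequences are RefSeq's (GRCh38.p14).

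Genes with more than 5 reads in at least 4 samples were tested (18130 of 19823). All 9 members passed. The test was limma 3.58.1 in R 4.3.3 (trend, robust) on log2(normalized count + 1), two-sided, with Benjamini-Hochberg adjustment over all genes tested, so fold changes of genes with few reads are understated. Count tests on the recovered reads (edgeR 4.0.16, which called 3 genes, and DESeq2 1.42.0, which called 23) were alternatives. The code was tested on simulated data. Groups and replicate numbers came from the sample titles. Over 11587 genes, the 2 samples sharing a number deviated together from their group means (correlations 0.269, 0.493 and 0.388, all above 0.1). Their mean correlation was 0.383, and that of the other ways to match the samples ran from -0.195 to 0.163. On this ground the numbers were treated as pairs. The labels state no pairing, so it was inferred from the same values that the blocked fits then tested. With 3 samples a group few matchings are possible, so this ground is limited, and every blocked call rests on it. Members and gene lists were chosen with earlier results of these data known. Named related genes are those past 0.05 with or without the block, at most 4 per list. The 7 marker lists cover glutamatergic, pan-neuronal, GABAergic, astrocyte, oligodendrocyte, pluripotency and proliferation markers. The last 2 summed to 15.4 to 28.8 and 125 to 152 normalized counts, and the GABAergic list to 256 to 328.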

Additional observations from a re-analysis of the deposited data

How the results depend on the processing

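The pairing moved the calls most. With the replicate block, 2 of the 9 genes passed in limma and 2 in edgeR, and with 1 sample or 1 pair left out the number was 0 to 2. Over all genes the 3 calls became 885 (limma with the block), 977 (edgeR with the block), 23 (DESeq2) and 139 (DESeq2 with the block), and 2 to 67 with 1 sample left out or 531, 665 and 456 with the block and pair 1, 2 or 3 left out. For the related genes the 0 calls became 11, 12 and 3 with the block in limma, edgeR and DESeq2, 0 to 2 with 1 sample left out and 7, 9 and 8 with the block and pair 1, 2 or 3 left out. Leaving out pairs was added after the data were seen.

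Of 188 recomputed log2 fold changes of the 9 genes, 14 changed sign, among NLGN2, LRRTM1, LRRTM3 and LRRTM4. NLGN2 was at -0.0022 (edgeR), -0.0020 (edgeR with the block), -0.0020 (DESeq2), -0.0017 (DESeq2 with the block) and -0.0019 (TMM scaling). With samples or pairs left out it ran from -0.038 to 0.030 (blocked, -0.0084 without pair 1 and -0.0205 without pair 2), LRRTM4 from -0.070 to 0.044 (blocked, 0.0136 without pair 2), LRRTM3 from -0.053 to 0.17 and LRRTM1 from -0.39 to 0.0020. The difference in the LRRTM4 share, 0.649 points, ran from -1.02 to 2.53. Other scalings, pseudocounts and filters kept every member's side of the threshold in limma, and the filter on a mean of 50 removed LRRTM2. DESeq2 called fewer genes with the block than limma or edgeR did, and the cause was not tested. Depth limits LRRTM2 most, at 24 to 46 reads.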
